A study of Xenopus laevis with 4 samples.

Results

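The transcripts described here are those of 5 genes, for digestive enzymes of the exocrine pancreas and for an enzyme of creatine synthesis. The genes cel.1.L and cel.2.S encode bile salt-activated lipases, amy2b.S an amylase and dnase1 the secreted nuclease DNase I. The gene gatm.L encodes the amidinotransferase of creatine synthesis. Their transcripts were measured in pancreatic buds of *Xenopus laevis*, and which cells of the buds made them was not tested. Members were all probe sets (groups of probes on the array that report on 1 transcript) whose annotation gave one of these symbols and no other. This gave 5 of the 7531 genes that the annotation names singly, with 6 of the 15491 probe sets that are not controls. The gene gatm.L had 2 of them and the other genes 1 each.

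The samples were 2 pools of dorsal and 2 pools of ventral pancreatic buds, dissected from anaesthetised tadpoles before the buds had fused, each pool of 1000 to 3000 buds with 1 to 5 ng of total RNA and each on its own 1-colour Affymetrix array. Embryos were raised in 0.1XMMR, a dilute salt medium, and the tadpoles were anaesthetised in MS-222. Strain, genotype and tadpole stage are not given in the sources used here, and nothing says whether pools of one kind came from separate clutches, so a p-value speaks only for the spread among these 4 arrays, and that spread may be technical. The comparison asks in which transcripts dorsal and ventral buds differ.

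The exocrine pancreas consists of acinar cells, which make enzymes for the digestion of protein, fat, starch and nucleic acid and secrete them into the gut through ducts. Bile salt-activated lipase, also called carboxyl ester lipase, splits triglycerides, cholesterol esters and fat-soluble vitamin esters once bile salts are present. Amylase cleaves starch, and DNase I degrades DNA. The amidinotransferase made from gatm joins arginine and glycine to guanidinoacetate, which the methyltransferase made from gamt turns into creatine; in mammals the first step is strong in kidney and pancreas. *Xenopus laevis* is an allotetraploid, so that many genes exist as a pair of homeologues on a long (.L) and a short (.S) subgenome. Probes made for a gene can also pick up its homeologue.

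The deposited values are linear intensities with a mean of 100 on every array. Intensities of different probe sets depend on their probes, so only the same probe set is compared between arrays. The 17 tag control probe sets of the array, which carry no frog gene name, reached at most 21.5 and serve as a mark for dim values. Across the 9294 probe sets tested, the dorsal arrays differed from each other more (SD of the log2 gap 0.48) than the ventral arrays did (0.29). Of 16 exocrine markers on the array, 11 passed the filter on dim probe sets and 5 were too dim to be tested. The levels of those tested reached from ctrb1.L, a chymotrypsinogen gene with 2825 to 5353 in the 4 arrays, to dim ones such as prss1.L, a trypsinogen gene with 12.3 to 31.7.

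The arrays of the 2 buds lay apart for the nuclease gene dnase1, the creatine gene gatm.L and the dim lipase gene cel.1.L, and overlapped for the lipase gene cel.2.S and the amylase gene amy2b.S. Of the 5 member probe sets bright enough to be tested, all 5 had a log2 difference (dorsal minus ventral) above 0, where 54.3% of all tested probe sets did. In 3 of them both dorsal arrays lay above both ventral arrays, as in 21.9% of all tested probe sets. One of these, cel.1.L, had a mean log2 value of 4.17 in ventral buds, under the filter on dim probe sets at 4.40, and passed that filter only through its dorsal arrays (4.70). For amy2b.S the ventral mean was at the filter (4.40) and the sign rested on dorsal replicate 1. Neither count is therefore read as support for a direction of the members. None of the 5 passed an adjusted p of 0.05 in limma with Benjamini-Hochberg adjustment over all tested probe sets, a threshold passed by 0.258% of them (0.0753% on the dorsal and 0.183% on the ventral side). Before adjustment 2 of the 5, dnase1 and gatm.L, had a p under 0.05 and were higher in dorsal buds, as had 3.41% of all tested probe sets. With 2 arrays against 2, an exact permutation test of a single value cannot go below p = 0.333 (two-sided), so the tests rest on the spread shared across probe sets.

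**Figure D1:**
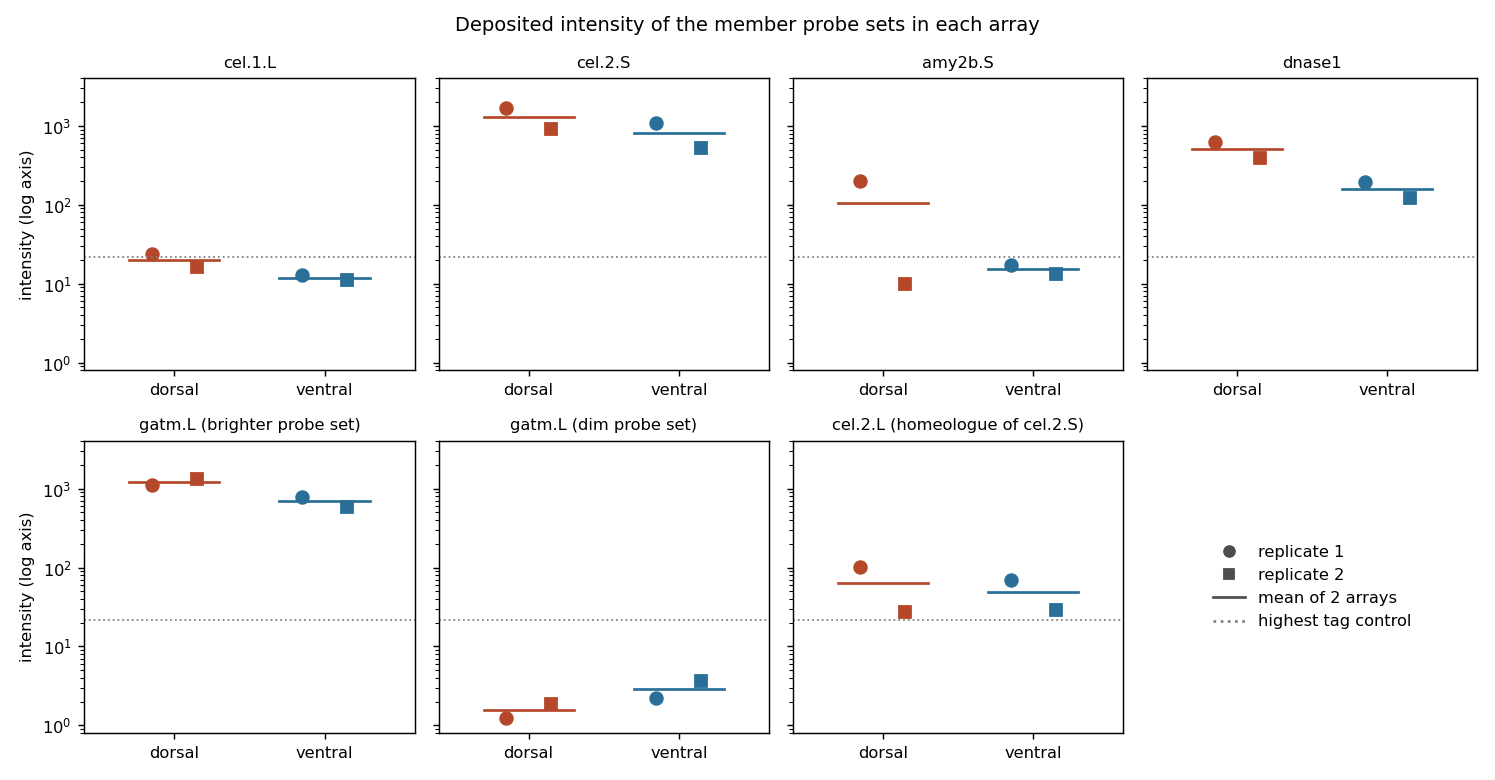
Deposited intensity (log axis) of the 6 member probe sets and of cel.2.L in the 2 dorsal and 2 ventral arrays, with a circle for replicate 1, a square for replicate 2 and a line at the mean of 2 arrays. The dorsal arrays lie above the ventral arrays for dnase1, the brighter gatm.L probe set and cel.1.L, and amy2b.S exceeds the highest tag control (dotted line, 21.5) in dorsal replicate 1 only.

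Among the members, dnase1 had the widest separation of the buds. Intensity of dnase1 (probe set Xl.932.1.S1_at) was 617 and 397 in dorsal replicates 1 and 2 and 196 and 124 in ventral replicates 1 and 2. The lower dorsal array was 2.03 times the higher ventral array, and the higher dorsal array was 4.99 times the lower ventral array. Group means were 507 ± 156 in dorsal and 159.9 ± 51.2 in ventral buds (SD over the 2 arrays of each, n = 2), a 3.17-fold ratio. The log2 difference was 1.63 ± 0.28 (SE of the limma fit, 95% interval 0.96 to 2.30) with an adjusted p of 0.103 in limma, rank 10 among the 9294 tested probe sets ordered from the largest dorsal to the largest ventral difference. All log2 differences are on the log2(intensity + 6) scale, which understates the change of dim genes. Without 1 array the difference ran from 1.31 to 1.95. The difference was 1.32 and 1.94 without dorsal replicates 1 and 2, and 1.95 and 1.31 without ventral replicates 1 and 2. The single array left in a bud shows no spread of its own, so only the differences are given here.

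The other nuclease genes on the array showed no dorsal separation. The related dnase1l3.S, a gene of the same nuclease family, was dim at 3.30 to 9.13 in the 4 arrays, below the tag control mark, and was not tested. Of the 3 DNase and RNase genes on the array with a single symbol, dnase1 among them, 2 were tested and 0 passed, with a median log2 difference of 0.68 (-0.05 over all 3 with no filter on dim probe sets). The other tested one, rnaset2.L, a lysosomal RNase, stood at 37.9 and 32.7 in the dorsal arrays, against 49.0 and 39.3 in the ventral arrays, with a log2 difference of -0.28 (limma adjusted p = 0.766). Its ventral arrays both lay above its dorsal arrays, which was so for 18.1% of all tested probe sets.

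The brighter gatm.L probe set (Xl.7438.1.S1_at) had intensities of 1102 and 1335 in the dorsal arrays, against 789 and 591 in the ventral arrays. Here dorsal replicate 2 was the highest array, unlike the other 4 tested members, which were highest in dorsal replicate 1. The mean was 1219 ± 164 in dorsal and 689.6 ± 140.1 in ventral buds (SD, n = 2), a 1.77-fold ratio, and single dorsal arrays were 1.40 to 2.26 times single ventral arrays. The log2 difference was 0.82 ± 0.18 (95% interval 0.40 to 1.25, limma adjusted p = 0.183), rank 82 from the dorsal end. It ran from 0.62 to 1.03 without 1 array. The difference was 0.96 and 0.69 without dorsal replicates 1 and 2, and 1.03 and 0.62 without ventral replicates 1 and 2.

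The other gatm.L probe set (Xl.13177.1.A1_at) did not report the same pattern. It lay at 1.24 and 1.88 in the dorsal arrays, against 2.19 and 3.66 in the ventral arrays, all below the pseudocount of 6 and the tag control mark, and it failed the filter on dim probe sets. No direction is drawn from it.

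The other genes of creatine metabolism went both ways. The next enzyme of the pathway, the methyltransferase that makes creatine from guanidinoacetate, is encoded by gamt.S and gamt.L. Intensity of gamt.S was 263 and 286 in the dorsal arrays, against 146 and 178 in the ventral arrays, so its groups did not overlap, with a log2 difference of 0.75 ± 0.18 (95% interval 0.32 to 1.17, limma adjusted p = 0.222). Its homeologue gamt.L stood at 217 and 88.1 in the dorsal arrays, against 147 and 127 in the ventral arrays, with overlapping groups and a log2 difference of 0.02 (95% interval -0.87 to 0.91, limma adjusted p = 0.991). The sign for gamt.L turned without dorsal replicate 1 (-0.60), without ventral replicate 2 (-0.08) and with quantile normalization (-0.05).

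Creatine kinases, which use creatine to buffer ATP, had lower mean log2 values in the dorsal buds. The mitochondrial kinase gene ckmt1b.S lay at 84.5 and 47.3 in the dorsal arrays, against 212 and 342 in the ventral arrays (log2 difference -1.99 ± 0.32, limma adjusted p = 0.0895). The brain-type gene ckb.L lay at 64.9 and 70.9 in the dorsal arrays, against 125 and 133 in the ventral arrays (log2 difference -0.87 ± 0.18, limma adjusted p = 0.164). Groups overlapped for the muscle-type ckm.L (log2 difference -0.54) and for ckmt1b.L (-0.63). Of the 7 genes on the creatine list, the member gatm.L among them and all tested, 0 passed over all probe sets. An unadjusted limma p under 0.05 was reached by 2 on the dorsal side (gatm.L and gamt.S) and 2 on the ventral side (ckmt1b.S and ckb.L). Over all tested probe sets 3.41% reached it on the dorsal side and 5.21% on the ventral side. The median of the list was -0.54, beside 0.03 over all tested probe sets, and it was -0.22 without dorsal replicate 2. In the same arrays the skeletal muscle markers, whose cells are rich in creatine kinase, had a summed intensity of 475 and 399.8 in the dorsal arrays, against 818 and 1106 in the ventral arrays over 17 genes. These sums include ckm.L itself, at 68.6 and 137 in the dorsal arrays, against 134 and 154 in the ventral arrays. Of the 12 tested, 0 passed the threshold. In 9 both ventral arrays lay above both dorsal arrays (18.1% of all tested probe sets), and ckm.L was not among these 9. Some of the 9, such as tnnc2.L at 22.2 and 1.22 in the dorsal arrays, passed the filter on dim probe sets only through their ventral arrays. The part of the muscle markers in the kinase values was not tested.

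**Figure D2:**
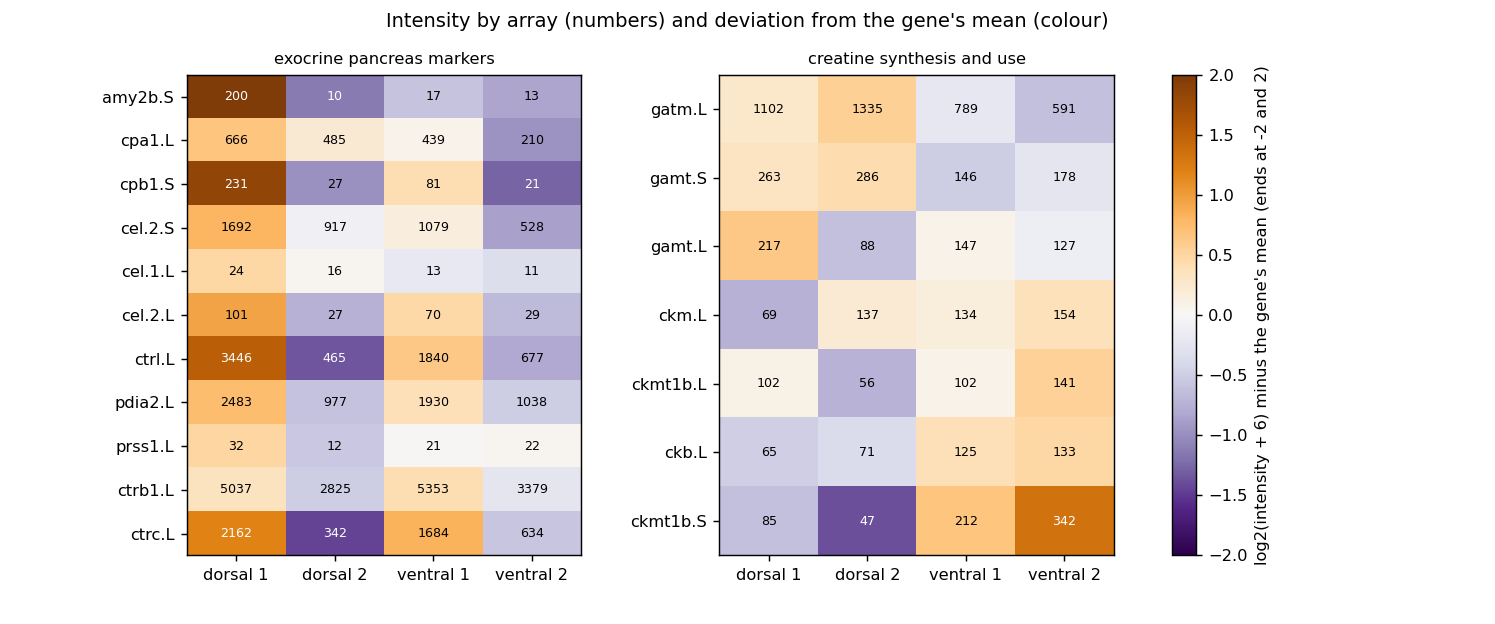
Intensity of each tested gene (printed in the cells) in the 4 arrays for the exocrine pancreas markers (left) and the genes of creatine synthesis and use (right); colour is the log2(intensity + 6) value minus the mean of that gene. Dorsal replicate 1 is the highest array for 10 of the 11 exocrine genes, beside 26.5% of all tested probe sets. Of the 10, cel.1.L and amy2b.S passed the filter on dim probe sets only with that array included. The count is therefore not read as support for a pattern. The genes gatm.L and gamt.S are higher in both dorsal arrays and ckb.L and ckmt1b.S in both ventral arrays.

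The lipase gene cel.2.S differed more between replicates of a bud than between the means of the buds. Intensity of cel.2.S (Xl.24591.1.A1_at) was 1692 and 917 in the dorsal arrays, against 1079 and 528 in the ventral arrays, so ventral replicate 1 exceeded dorsal replicate 2. Means were 1304 ± 549 in dorsal and 804 ± 389 in ventral buds (SD, n = 2), a ratio of 1.62. The log2 difference was 0.72 ± 0.38 (95% interval -0.18 to 1.62, limma adjusted p = 0.660). The interval includes 0 and also a 2-fold dorsal excess. The difference was 0.28 and 1.16 without dorsal replicates 1 and 2, and 1.23 and 0.21 without ventral replicates 1 and 2. Replicate 1 was 1.85 times replicate 2 in dorsal and 2.04 times in ventral buds.

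The homeologue cel.2.L had 101 and 27.1 in the dorsal arrays, against 69.9 and 28.9 in the ventral arrays. Its arrays thus stood in nearly the same order, with replicate 1 above replicate 2 in both buds, and its log2 difference was 0.21 (95% interval -1.15 to 1.56, limma adjusted p = 0.947). The sign turned without dorsal replicate 1 (-0.64) and without ventral replicate 2 (-0.35). Signal of cel.2.L and cel.2.S may in part come from the same transcripts, since the probes of homeologues can cross-hybridise.

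The second lipase copy cel.1.L (Xl.2932.1.A1_at), with 0 other protein-coding genes between it and cel.2.L in the RefSeq table, was dim. It stood at 24.0 and 16.5 in the dorsal arrays, against 12.9 and 11.0 in the ventral arrays. Both dorsal arrays lay above both ventral arrays, by ratios of 1.28 to 2.17 between single arrays, but only dorsal replicate 1 exceeded the tag control mark of 21.5. Dorsal replicate 2 and ventral replicate 2 also exceeded the highest tag control of their own array (12.6 and 9.37), and ventral replicate 1 did not. The dorsal mean was 20.2 ± 5.31 (SD, n = 2), 1.69 times the ventral mean, whose SD was 1.31 (n = 2). The log2 difference was 0.53 ± 0.25 (95% interval -0.06 to 1.13, limma adjusted p = 0.640), and it was 0.29 with 4 times the pseudocount.

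Other lipid digestion genes were mostly too dim to be compared. Of 9 such genes on the array, the 3 cel genes among them, 4 were tested and 0 passed, with a median log2 difference of 0.37, which was 0.90 without dorsal replicate 2, 0.69 without ventral replicate 1 and 0.02 without ventral replicate 2. The fourth was fabp2.L, the intestinal fatty acid carrier, at 13.8 and 65.0 in the dorsal arrays, against 36.3 and 50.3 in the ventral arrays. Classical pancreatic lipase, pnlip.L, lay between 7.77 and 9.68 in the 4 arrays. The related pnliprp2.L lay at 1.62 and 2.07 in the dorsal arrays, against 9.36 and 9.30 in the ventral arrays. All these values of pnlip.L and pnliprp2.L were below the tag control mark.

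Amylase transcripts stood out in a single array. Intensity of amy2b.S (Xl.21603.1.S1_at) was 200.2 in dorsal replicate 1 and 9.79 in dorsal replicate 2, and 17.0 and 13.4 in the ventral arrays. The 3 arrays other than dorsal replicate 1 lay below the tag control mark, so a level above that mark was seen in 1 array of 4. Against the highest tag control of the same array, amy2b.S was also above it in ventral replicate 2 (9.37), but not in ventral replicate 1 (21.5). In dorsal replicate 2 amy2b.S lay below that array's own highest tag control (12.6), so only a bound can be given. With that control as the floor, dorsal replicate 1 was at least 15.9-fold higher than dorsal replicate 2. Means were 105 ± 135 in dorsal and 15.2 ± 2.57 in ventral buds (SD, n = 2). The log2 difference between buds was 1.43 ± 1.01 (95% interval -0.96 to 3.83, limma adjusted p = 0.753). It was 3.29 without dorsal replicate 2 (limma adjusted p = 2.35e-07, with the lone dorsal array taken to vary like the ventral arrays) and -0.42 without dorsal replicate 1 (limma adjusted p = 0.420). The order of the buds for amylase therefore rests on dorsal replicate 1. That array also had the highest ratio of 3′ to 5′ signal of the Gapd control probe sets, at 9.69 against 5.53 to 7.55 in the other 3. Such a ratio can reflect RNA quality as well as the oligo(dT)-primed copying, which favours 3′ ends. The part of either in the amylase value was not tested. The only other glycosidase gene on the array by the list used, ganab.L, an endoplasmic reticulum glucosidase that trims sugar chains of new glycoproteins, stood at 178 and 127 in the dorsal arrays, against 116 and 106 in the ventral arrays (log2 difference 0.42, limma adjusted p = 0.654). Of these 2 genes 0 passed, and their median was 0.93 (-0.12 without dorsal replicate 1).

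**Figure D3:**
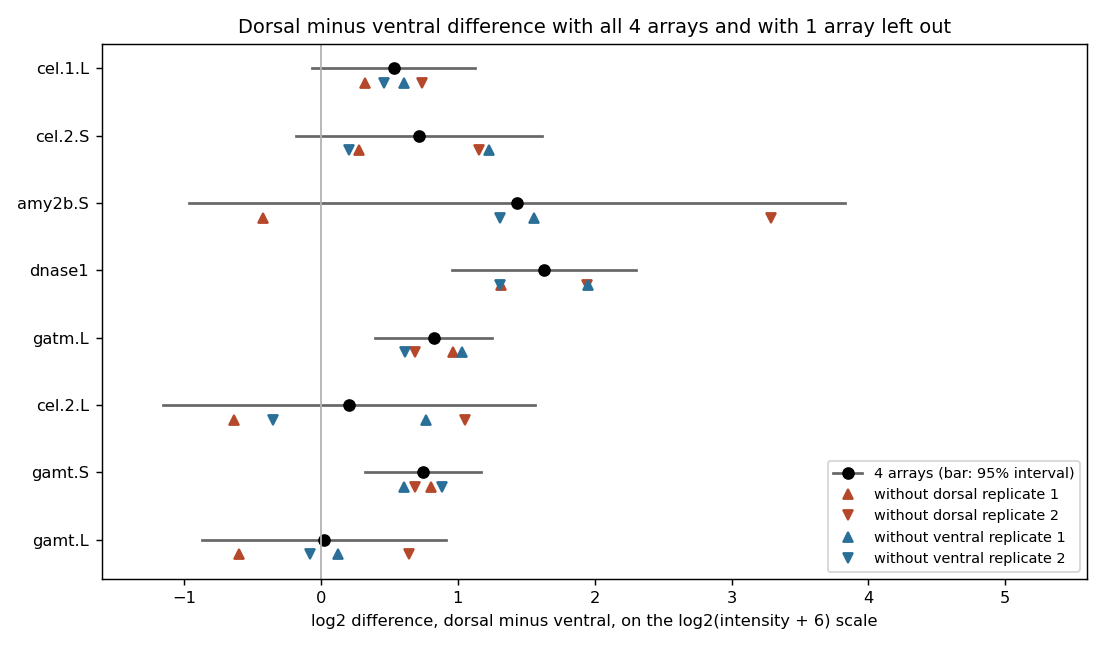
Log2 difference (dorsal minus ventral, log2(intensity + 6) scale) of the 5 tested members, of cel.2.L and of the 2 gamt genes, with all 4 arrays (black, bar for the 95% interval of the limma fit) and with each array left out in turn (triangles). Only amy2b.S, cel.2.L and gamt.L change sign when 1 array is left out, and dnase1 stays between 1.31 and 1.95.

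The members differed in how far they shared the gap between replicates with other exocrine genes. Of the 7 tested genes for other exocrine enzymes and secretory proteins (proteases, carboxypeptidases and the acinar disulphide isomerase pdia2.L), 7 were higher in dorsal replicate 1 than in dorsal replicate 2 and 6 were higher in ventral replicate 1 than in ventral replicate 2. Over all tested probe sets these shares were 48% and 50.4%. Dorsal replicate 1 was the highest of the 4 arrays in 6 of the 7, where 26.5% of all tested probe sets were highest there. The chymotrypsin-like gene ctrl.L, for example, stood at 3446 and 465 in the dorsal arrays, against 1840 and 677 in the ventral arrays.

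Of the 5 tested members, 4 were higher in replicate 1 in both buds, against 24.9% of all tested probe sets, and gatm.L was the exception. Among the 4, cel.1.L and amy2b.S passed the filter on dim probe sets (mean log2 value of 4.40) only with dorsal replicate 1 included. The count of 4 is therefore not read as support for a shared replicate pattern. The genes cel.2.S and dnase1 passed the filter in either bud alone. The dorsal gap between replicates 1 and 2 was 3.71 on the log2 scale for amy2b.S, 0.88 for cel.2.S, 0.63 for dnase1, 0.42 for cel.1.L and -0.27 for gatm.L, beside 2.87 for ctrl.L, 2.83 for cpb1.S and 2.64 for ctrc.L. The size for amy2b.S depends on the pseudocount, since its lower value was below the tag controls. In the ventral buds the gap of cel.2.S was 1.02, which 0.323% of tested probe sets exceeded, and that of dnase1 was 0.64, which 3.26% exceeded. The labels name no batch, and whether a shared number marks pools collected together is not stated.

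**Figure D4:**
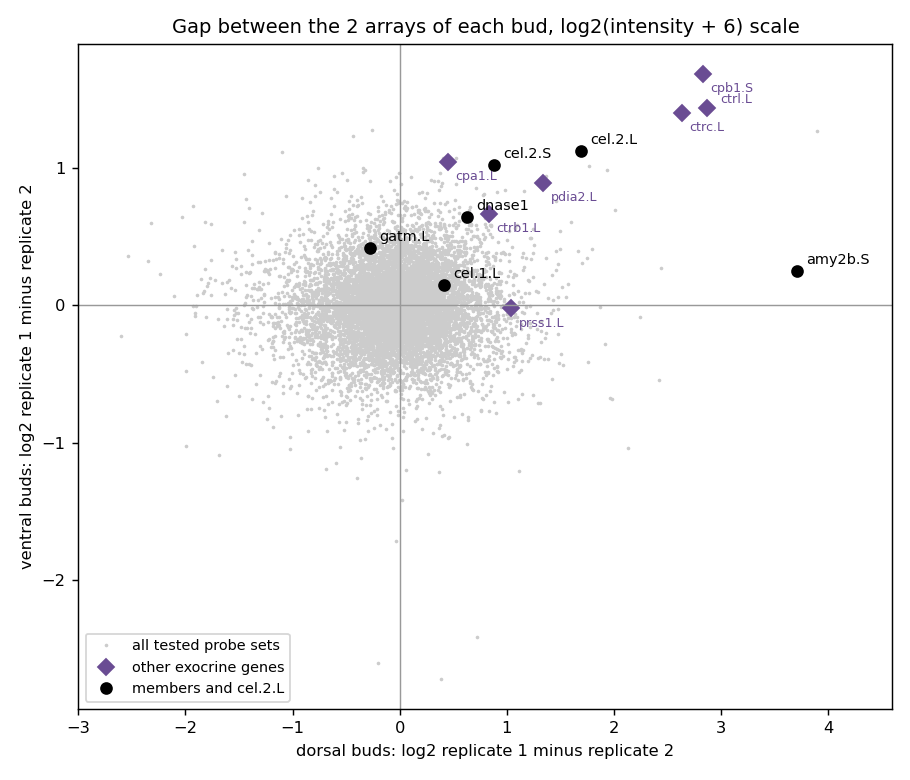
Log2 gap between replicates 1 and 2 in the dorsal (horizontal) and ventral (vertical) buds for all 9294 tested probe sets (grey), the 7 other exocrine genes (diamonds) and the tested members with cel.2.L (black circles). The members cel.2.S and dnase1 lie to the upper right with most exocrine genes, amy2b.S lies far to the right at 3.71, and gatm.L has a dorsal gap of -0.27.

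As a group the other exocrine genes had differences on both sides of 0. Their median log2 difference was 0.14, beside 0.03 over all tested probe sets, and 0 of 7 passed. An unadjusted limma p under 0.05 was reached by 1 on the dorsal side, as by 3.41% of all tested probe sets. This was cpa1.L, a carboxypeptidase gene (log2 difference 0.89, limma adjusted p = 0.520). The carboxypeptidase gene cpb1.S was at 0.87 in its brightest probe set (limma adjusted p = 0.829). Another tested probe set of cpb1.S was at 1.33 (limma adjusted p = 0.590). The chymotrypsin genes ctrc.L and ctrl.L were at -0.26 and 0.18. The median was -0.59 without dorsal replicate 1, 1.06 without dorsal replicate 2, 0.58 without ventral replicate 1, -0.31 without ventral replicate 2 and -0.04 with no filter on dim probe sets. The 7 genes of the list that were not tested, 4 elastase genes among them, were too dim; cela1.1.L, an elastase gene, was at 27.5 in dorsal replicate 1 and at 9.15 to 10.6 in the other arrays. Whether the difference of dnase1 is larger than that of the other exocrine genes was not tested.

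By profile over the 4 arrays, the gene nearest to cel.2.S was cpa1.L. Likeness was the Euclidean distance between log2 profiles centred on their mean, among 6228 tested probe sets of other genes with 1 symbol. The distance was 0.35 for cpa1.L, which had 666 and 485 in the dorsal arrays, against 439 and 210 in the ventral arrays, and 9 probe sets lay within 0.50. The next nearest were aldh6a1.S (0.40) and nrsn1.L (0.41). For amy2b.S the nearest were the 2 probe sets of cpb1.S, at distances of 1.32 and 1.48, with sbk1l.L between them at 1.45. For dnase1 the nearest were egr1.L (0.54), pcolce2.S (0.66) and cpe.L (0.66), and 0 lay within 0.50. Of these cpe.L, which encodes a prohormone-trimming carboxypeptidase, passed the threshold (log2 difference 1.76, limma adjusted p = 0.0293).

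Flatter profiles had many near neighbours. For gatm.L the nearest were the mitochondrial genes fdxr.L (0.15) and sfxn2.S (0.17) and then pcbd2.L (0.19), with 235 probe sets within 0.50. For cel.1.L they were cbs.L (0.09), slc52a1.L (0.10) and kif2c.S (0.10), with 1211 within 0.50, so that many profiles lay about as near. With 4 arrays such likeness is a description.

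Markers of other cell types also differed between the buds. In bulk samples fewer cells of a type and less RNA per cell cannot be told apart. Endocrine markers had a higher summed intensity in dorsal buds. Over 14 genes it was 3696 and 4410 in the dorsal arrays, against 186 and 153 in the ventral arrays. The insulin genes ins.S and ins.L made up most of the dorsal sums. In the dorsal arrays ins.S stood at 1970 and 2670, against 73.2 and 41.8 in the ventral arrays. For ins.L these values were 1383 and 1235, against 32.7 and 26.3. All 7 tested genes had both dorsal arrays above both ventral arrays (21.9% of all tested probe sets). The threshold was passed by 4, all dorsal (0.0753% of all tested probe sets). The 4 were ins.S, ins.L, pcsk2.L and cpe.L. Of these 7, pcsk2.L, insm1.L, neurod1.L and chga.L lay under the filter on dim probe sets (an intensity of 15.14) in both ventral arrays. They passed the filter only through their dorsal arrays. The count of 7, and the count of 4 that holds pcsk2.L, are therefore not read as support for a direction. The hormone genes gcg.L and sst.1.L were at most 5.53 and 10.9. Liver markers were mostly higher in ventral buds. Sums over 21 genes were 2960 and 5532 in the dorsal arrays, against 7353 and 7258 in the ventral arrays. Of 20 tested, 14 were higher in both ventral arrays (18.1% of all tested probe sets). The threshold was passed by 4, all ventral (0.183% of all tested probe sets). The 4 were itih2.S, f9.S, proc.S and f12.L. A log2 difference above 0 was seen in 2, apob.S at 0.58 and ttr.L at 0.17. In both dorsal arrays f9.S, f12.L, proc.S and fgb.L lay under the filter on dim probe sets. They passed that filter only through their ventral arrays, so these counts are not read as support for a direction. The median log2 difference of the 20 liver genes was -1.37. Without dorsal replicate 1 it was -0.67. Blood markers summed to 6933 and 4538 in the dorsal arrays, against 8337 and 11188 in the ventral arrays over 13 genes. Of the 8 tested, 7 were higher in both ventral arrays (18.1% of all tested probe sets) and 0 passed the threshold. Of 5 intestine and stomach genes 4 were tested and 1 passed, as did 0.0753% of all tested probe sets on the dorsal side. This was darmin.L, at 736 and 1193 in the dorsal arrays, against 77.0 and 97.1 in the ventral arrays. It made up most of the dorsal sums of the list, which were 775 and 1291, against 168 and 198 in the ventral arrays. The other 3 tested had log2 differences below 0 (fabp2.L -0.38, vil1.S -0.56 and sult1c1.L -0.86), and the median of the 4 was -0.47, or 0.11 without dorsal replicate 1.

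The 3 kidney markers on the array, the transcription factor genes pax8.L, pax2.L and lhx1.L, were at most 12.6 in any array, and none was bright enough to be tested. The exocrine markers, 16 genes with members and cel.2.L included, summed to 16142 and 6130 in the dorsal arrays, against 12567 and 6597 in the ventral arrays. Of 11 tested, 0 passed. The part of the endocrine, liver, blood, gut and kidney markers in the values of dnase1 and gatm.L was not tested.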

How the data were processed

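The authors deposited linear probe-set intensity values for 4 arrays; MAS5 is named, per the submitters' processing notes, with no version, and scaling target, background setting and detection calls are not given in the sources used here. Copy RNA was made from oligo(dT)-primed cDNA, per the labels' protocols, which favours 3′ ends. Means of 100 on every array show scaling before deposit, and 2% trimmed means lay within 10% of each other, so the scaling was kept. Of 15611 probe sets, 120 were controls. The platform annotation gave 9304 of the rest a single symbol, updated through gene IDs with the RefSeq table of assembly Xenopus_laevis_v10.1 (9227 matched, 2 changed; the ID of dnase1 did not match and its symbol was kept).

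A pseudocount of 6 (20th percentile) was added before log2, and the 9294 probe sets with a mean above the 40th percentile were fitted with limma 3.58.1 in R 4.3.3 (lmFit, eBayes with intensity trend, 4 arrays, no covariate), with Benjamini-Hochberg adjustment over all of them and a threshold of 0.05. The number of arrays limits the precision. No values were identical between arrays. The fit was also run on simulated data that gave both buds the same spread. The dorsal arrays here differed more than the ventral arrays did, so that run does not test the p-values for this setting. Lists used 1 probe set a gene, the brightest, and no set test.

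Members and lists were chosen with earlier results of these data known. Named genes were all member probe sets, their homeologues and tandem copies, and 3 nearest profiles a member. Also named were any list gene past the threshold and, marker lists apart, up to 4 genes a list with the largest absolute difference. Other genes named (gamt.L, dim genes, marker examples, examples of replicate gaps) were chosen after their values were seen. Alternatives were other pseudocounts, filters and scalings, no intensity trend, the replicate number as a block, and leaving out each array.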

Additional observations from a re-analysis of the deposited data

How the results depend on the processing

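Over the 5 tested members, 38 fits with another pseudocount, filter, scaling or variance model or with the replicate number as a block left 37 differences on the same side of 0 and of the threshold; cel.1.L and amy2b.S were too dim for the filter at the 60th percentile. The exception was dnase1 with the replicate number as a block, still at 1.63 but with a limma adjusted p of 0.00753 (0.0894 to 0.161 in the other such fits). With that block cel.2.S stayed at 0.72, and its limma adjusted p was 0.0701, against 0.660 without the block. The block raised the count of probe sets past the threshold from 24 to 67. Nothing in the labels says that pools of one number belong together. Across all tested probe sets the gaps between replicates 1 and 2 were hardly correlated between the buds (r = 0.047). The dorsal and ventral gaps were alike for dnase1 (0.63 and 0.64) and cel.2.S (0.88 and 1.02). They were unlike in size for amy2b.S (3.71 and 0.25) and cel.1.L (0.42 and 0.15), and opposite in sign for gatm.L (-0.27 and 0.41). Whether the numbers pair pools cannot be told from these values. With the filter at the 60th percentile the count was 13; fewer probe sets were tested. Leaving out 1 array, where the single array left in a bud is assumed to have the spread of the opposite bud, gave counts of 4 to 902 (902 without dorsal replicate 1, 348 without dorsal replicate 2, 4 without either ventral array), and log2 differences of 0.32 to 0.74 for cel.1.L, 0.21 to 1.23 for cel.2.S, -0.42 to 3.29 for amy2b.S, 1.31 to 1.95 for dnase1 and 0.62 to 1.03 for gatm.L. In 20 such fits 6 gained a call, each without a dorsal array, and 1 turned sign, amy2b.S without dorsal replicate 1. Of genes that are no members, cel.2.L ran from -0.64 to 1.05 and gamt.L from -0.60 to 0.64 without 1 array, gamt.L was -0.051 with quantile normalization, cel.2.L was -0.35 and gamt.L -0.08 without ventral replicate 2. The cause was not tested. Values near or below the tag controls (cel.1.L, 3 arrays of amy2b.S, the dim gatm.L probe set) limit what can be said of those genes.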

Other observations

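Of 12 genes for regulators of acinar and pancreas development on the array, 11 were tested and 0 passed in limma. An unadjusted limma p under 0.05 was reached by 2, both on the dorsal side, as by 3.41% of all tested probe sets. A log2 difference above 0 was seen in 8 of the 11 (54.3% of all tested probe sets), and both dorsal arrays lay above both ventral arrays in 6 (21.9%). Their median log2 difference was 0.22. A filter at the 60th percentile gave 0.13 and 4 times the pseudocount gave 0.15. Whether the list differs from other genes was not tested. The largest differences of single genes were those of mnx1.S, a homeobox gene of the dorsal pancreas in the mouse, at 33.5 and 38.8 in the dorsal arrays, against 21.1 and 11.7 in the ventral arrays (0.94, limma adjusted p = 0.333), nr5a2.L, a nuclear receptor of acinar cells (0.92, limma adjusted p = 0.411), nr5a2.S (-0.63) and the Notch target hes1.S (0.62).

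Arginine and glycine metabolism supplies the substrates of the gatm enzyme. The list used for it, which also held the methionine genes mat2a.L, ahcy.L and ahcy.S, had a median log2 difference of 0.18. This was over 15 tested genes of 23 on the array. Of these 0 passed in limma. The lowest unadjusted p, 0.0108, was that of the methionine adenosyltransferase gene mat2a.L at 542 and 451 in the dorsal arrays, against 346 and 321 in the ventral arrays (0.56, limma adjusted p = 0.351). Both dorsal arrays lay above both ventral arrays in 6 of the 15, beside 21.9% of all tested probe sets. The median was 0.29 without dorsal replicate 1 and 0.11 without dorsal replicate 2. The next largest were dld.S (0.40), ahcy.S (0.37) and gcsh.L (0.30).

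Control probe sets varied between arrays. The geometric mean of the 12 probe sets for bacterial poly(A) control transcripts was 160.3 and 83.8 in the dorsal arrays, against 115 and 211 in the ventral arrays. The ratio of 3′ to 5′ signal of the Gapd control probe sets was 9.69 and 5.53 in the dorsal arrays, against 7.52 and 7.55 in the ventral arrays. It was highest in dorsal replicate 1. The same array was highest for 10 of the 11 tested exocrine markers, amy2b.S among them, and for 26.5% of all tested probe sets. Of the 10, cel.1.L and amy2b.S passed the filter on dim probe sets only with that array included. The part of RNA quality or of the oligo(dT)-primed copying in those values was not tested.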
